A study of Mus musculus with 41 samples.

Results

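The mRNA of primary mouse embryonic fibroblasts (MEFs) was compared between 3 libraries of cells in which Hbs1l had been deleted and 3 libraries of control cells, 6 of the 41 samples of the series. These were chosen by their labels as the RNA libraries of both genotypes, all of Batch 6, and the estimated counts of each gene's transcripts were added up. The mutant cells carried CAG-Cre ER, a tamoxifen-inducible Cre transgene driven by a broadly active promoter, together with a floxed Hbs1l allele over a null allele (CAG-Cre ER; Hbs1l cKO, here Hbs1l-/-). Control cells were labelled CAG-Cre ER alone. Both were labelled C57BL/6, carried the B6J mutation of the tRNA gene n-Tr20, and were treated with tamoxifen, so that a control without Cre or without tamoxifen is not part of the comparison. Cells came from mid-gestation embryos and were collected at an early passage, and each replicate was 1 dish from 1 embryo. Other genotypes of the same batch, CAG-Cre ER; Pelo cKO (2 libraries) and CAG-Cre ER; Upf2 cKO (3 libraries), and ribosome footprint libraries of Hbs1l-/- and control MEFs (3 each) were used only for comparison.

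HBS1L is a GTPase related to translation termination factors. It binds PELO, and the pair enters the empty A site of ribosomes that have stalled on an mRNA, after which the ATPase ABCE1 splits the subunits so that they can be used again. The interferon pathway, to which many of the genes below belong, is a defence program in which type I interferons bind the receptor IFNAR1 and IFNAR2, the kinases JAK1 and TYK2 activate transcription factors, and these join IRF9 on a DNA element called ISRE to raise the transcription of antiviral genes.

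Between 26576733 and 86425762 counts per library were estimated in Hbs1l-/- MEFs (median 45995237) and between 22713643 and 77329534 in control MEFs (median 24684832). The first principal component held 55.3% of the variance and separated the genotypes. Xist, the RNA that silences an X chromosome, was measured in all libraries but was near 0 in control replicate 3 (0.179 CPM, estimated counts scaled to a common library size with TMM factors), which alone held Ddx3y (29.2 CPM), Eif2s3y (12.5), Kdm5d (9.73) and Uty (4.74), genes of the Y chromosome. Results were also computed without each library.

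Hbs1l itself was lowest in the libraries labelled Hbs1l-/-. Hbs1l (ENSMUSG00000019977.16, chr10:21295979-21368898, GRCm38) was at 9.54, 11.5 and 12.04 CPM in the 3 Hbs1l-/- libraries and at 72.3, 76.0 and 79.9 CPM in the 3 control libraries. The groups were far apart, and the level fell by 2.78 on the log2 scale, with a standard error of 0.12 (adjusted p = 1.79e-05). This and all adjusted p values below are from the quasi-likelihood test of edgeR. They were corrected by Benjamini-Hochberg over all genes tested in the fit concerned, or over all transcripts tested where transcripts are given. The deletion removes exon 5, and its transcripts differed in how they use that exon, which is why its sequence is shown. In Hbs1l-201 the exon has 100 bases, and in Hbs1l-209 it starts 9 bases earlier (chr10:21336967-21337075, plus strand, GRCm38), with these 9 bases in capitals.
Hbs1l exon 5: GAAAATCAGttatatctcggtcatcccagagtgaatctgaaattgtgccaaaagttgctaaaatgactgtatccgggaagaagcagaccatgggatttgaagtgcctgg

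Hbs1l-209, a full-length transcript, was at 0.00101, 0.274 and 1.38 TPM (transcript abundance scaled for length) in Hbs1l-/- MEFs and at 19.8, 25.9 and 29.9 TPM in control MEFs. Hbs1l-201 was at 2.55, 2.62 and 1.43 TPM against 6.98, 8.04 and 5.95 TPM. Added up, these full-length transcripts were at 2.75 ± 0.18 TPM (SD, n = 3) in Hbs1l-/- and 32.2 ± 4.76 TPM (SD, n = 3) in control cells, which was 11.7-fold less. The transcripts that end upstream of exon 5 and encode the shorter protein of the locus were not reduced. Hbs1l-203 was at 1.14, 2.50 and 2.19 TPM against 1.04, 0.926 and 1.03 TPM, a log2 fold change of 0.93 (standard error 0.35) that did not pass the test across transcripts (adjusted p = 0.239). Hbs1l-202 was at 1.13, 0.197 and 0.714 TPM against 0.759, 0.474 and 0.428 TPM, with overlapping groups. The sum of Hbs1l-202 and Hbs1l-203 was 2.62 ± 0.33 TPM (SD, n = 3) in Hbs1l-/- and 1.55 ± 0.22 TPM (SD, n = 3) in control cells. This was 1.69-fold more, without overlap of the groups, and the sum was not tested. Of the full-length pair, Hbs1l-201 passed that test (log2 fold change -1.70, adjusted p = 0.0472) and Hbs1l-209 did not (-5.45, adjusted p = 0.0658). The call for Hbs1l-201 was lost whenever 1 library was left out and with the replicate block, since edgeR then called no transcript. How far kallisto assigned reads of exons shared by these transcripts to the right transcript was not tested.

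**Figure D1:**
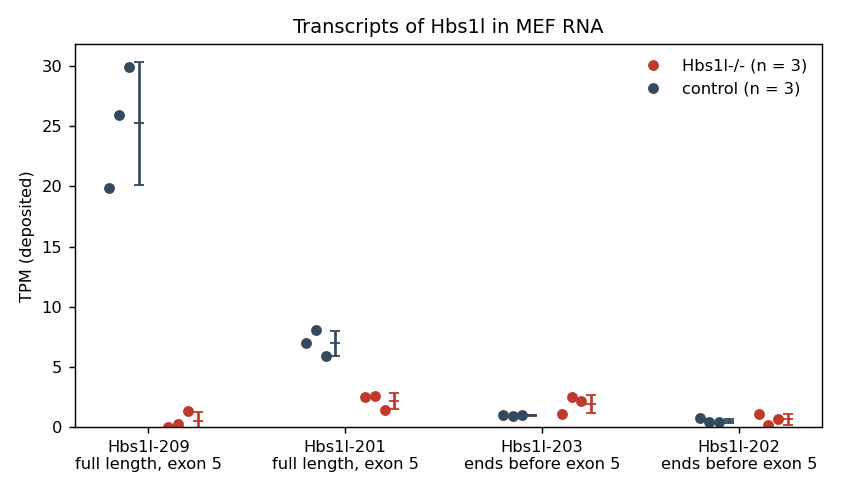
TPM of the 4 main Hbs1l transcripts (y axis) in each library, with the mean and SD beside the points, for 3 Hbs1l-/- and 3 control libraries. Hbs1l-209 sits between 19.8 and 29.9 TPM in control cells and at or below 1.38 TPM in Hbs1l-/- cells, while the transcripts ending before exon 5 lie below 3 TPM in both groups.

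Over all genes, 15318 of 55385 passed the filter on low counts. Of these, 1944 were higher in Hbs1l-/- MEFs (12.7%) and 1598 were lower (10.4%), with a median log2 fold change over all genes tested of -0.011. Most changes were small, since 387 of the higher genes exceeded a log2 fold change of 1 and 417 of the lower genes fell below -1. The groups of 6783 genes did not overlap (44.3%). The call count moved by more than 1.5 times without control replicate 2 (1817 genes) and without Hbs1l-/- replicate 2 (2185 genes), and 1477 genes were called in every fit that left out 1 library. Calls also went with base composition: genes in the lowest of 5 equal classes of transcript GC content had a median log2 fold change of -0.25 (101 higher, 454 lower), and those in the highest class 0.161 (643 higher, 195 lower), whereas the medians of footprints were 0.0328 and -0.0557. Libraries differed within a genotype in this respect, since the median deviation of the lowest class was -0.334 in Hbs1l-/- replicate 1 but 0.0335 and -0.0192 in replicates 2 and 3. Results were therefore also computed with offsets for GC content and length, an alternative chosen after seeing the data.

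**Figure D2:**
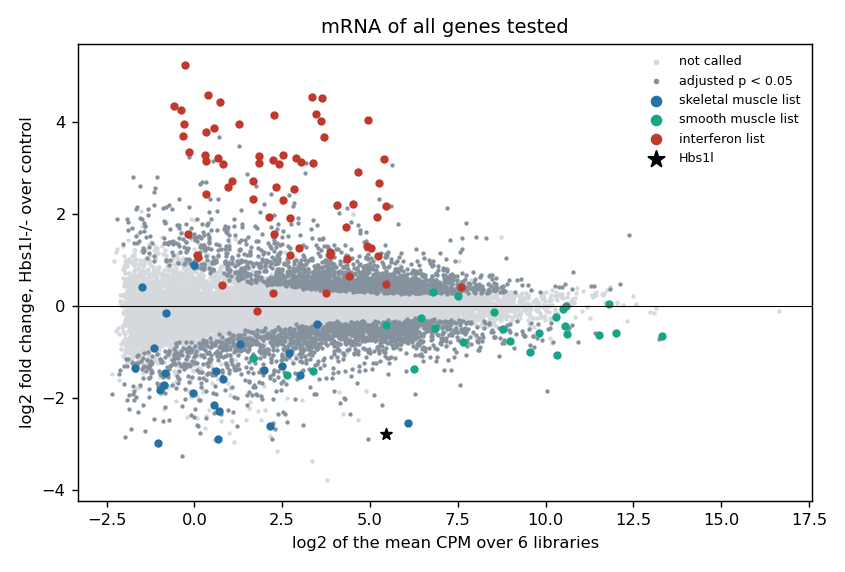
Log2 fold change of Hbs1l-/- over control MEFs (y axis) against the log2 of the mean CPM over 6 libraries (x axis) for the 15318 genes tested, with genes past the adjusted p threshold in dark gray. Of the interferon genes tested, all but Slfn5 lie above 0, most genes of the muscle lists lie below 0, and Hbs1l has a log2 fold change of -2.78.

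Genes that interferon induces rose together in Hbs1l-/- MEFs. Of 69 listed genes, 67 were tested, 62 rose (12.7% of all genes did), none fell and 5 did not pass, with a median log2 fold change of 2.72. Of the 67, 15 reached the filter on low counts through the Hbs1l-/- libraries alone and all 15 are among the 62. Over all genes, 454 reached it so, of which 92 rose and none fell. Of the other 52, which reached it in both groups, 47 rose and none fell (median 2.27), and with a minimum of 1 CPM in place of that filter 55 members rose. The summed level of the list was 1043 to 1652 CPM in Hbs1l-/- and 420 to 493 CPM in control libraries. Of the 12 genes with the largest increase by the naming rule, only Mrgprf was not on the list. Leaving out 1 library at a time, 58 to 64 members rose, and with the GC and length offsets 64 did. The windows around the start of genes with large increases are shown because many hold the ISRE core.

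RefSeq promoter windows (GRCm38.p6, 250 bases before to 50 after the start) were searched for the letters GAAANNGAAA on either strand, where the other strand reads TTTCNNTTTC and matches may overlap. Of the 67 tested interferon genes, 51 had a window and 28 of these held a match (54.9%), against 3.61% of the 11076 tested genes with a window and 3.44% of all 32851 windows. Of the 62 that rose, 46 had a window and 25 of these held a match (54.3%), much the same share as in the whole list. The members were listed as genes that interferon induces, so the share describes the list and not the change in these cells. Windows of 6 genes that rose follow, with matches in capitals. Isg15 is at chr4:156200769-156201068 (minus strand), Oas1a at chr5:120907476-120907775 (minus), Ifit1 at chr19:34640639-34640938 (plus), Ifit3 at chr19:34583279-34583578 (plus), Bst2 at chr8:71537423-71537722 (minus) and Cxcl10 at chr5:92348840-92349139 (minus).
Isg15: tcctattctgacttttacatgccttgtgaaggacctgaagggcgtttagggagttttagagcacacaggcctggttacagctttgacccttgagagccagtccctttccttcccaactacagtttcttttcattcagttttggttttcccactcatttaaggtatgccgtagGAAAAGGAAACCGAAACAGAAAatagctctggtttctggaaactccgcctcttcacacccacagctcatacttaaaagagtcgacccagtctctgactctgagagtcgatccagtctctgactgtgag
Oas1a: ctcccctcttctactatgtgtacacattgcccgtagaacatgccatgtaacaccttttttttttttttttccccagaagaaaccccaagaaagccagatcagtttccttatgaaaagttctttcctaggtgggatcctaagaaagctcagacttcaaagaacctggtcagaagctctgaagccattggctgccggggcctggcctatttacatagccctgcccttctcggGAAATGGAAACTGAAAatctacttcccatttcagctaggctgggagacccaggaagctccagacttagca
Ifit1: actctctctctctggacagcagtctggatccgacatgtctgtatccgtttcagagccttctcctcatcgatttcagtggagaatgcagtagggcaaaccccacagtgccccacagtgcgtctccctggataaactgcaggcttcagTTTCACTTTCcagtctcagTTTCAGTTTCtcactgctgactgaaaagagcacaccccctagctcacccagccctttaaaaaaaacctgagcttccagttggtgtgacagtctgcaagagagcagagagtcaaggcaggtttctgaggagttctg
Ifit3: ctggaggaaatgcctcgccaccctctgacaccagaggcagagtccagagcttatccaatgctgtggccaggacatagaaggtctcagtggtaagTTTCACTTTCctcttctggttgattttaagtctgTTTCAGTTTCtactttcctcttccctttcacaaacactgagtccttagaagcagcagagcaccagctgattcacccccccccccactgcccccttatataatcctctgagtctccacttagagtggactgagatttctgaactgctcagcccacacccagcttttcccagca
Bst2: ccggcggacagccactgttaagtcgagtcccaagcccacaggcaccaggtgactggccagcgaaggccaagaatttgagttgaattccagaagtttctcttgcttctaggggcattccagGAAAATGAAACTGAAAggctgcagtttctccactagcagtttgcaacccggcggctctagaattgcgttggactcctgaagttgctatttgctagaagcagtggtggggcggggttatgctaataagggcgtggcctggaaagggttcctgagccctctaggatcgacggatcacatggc
Cxcl10: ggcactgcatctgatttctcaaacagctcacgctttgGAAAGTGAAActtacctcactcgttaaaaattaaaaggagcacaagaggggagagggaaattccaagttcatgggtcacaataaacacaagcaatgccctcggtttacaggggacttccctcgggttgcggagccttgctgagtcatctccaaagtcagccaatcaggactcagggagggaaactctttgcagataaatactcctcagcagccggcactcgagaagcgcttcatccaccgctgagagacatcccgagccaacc
Isg15 had 3 overlapping matches, which began 78, 72 and 66 bases before the start, the Oas1a matches began 20 and 14 bases before it, and Cxcl10 had 1 match. Irf7, Irf9, Oasl1, Oasl2 and Xaf1, which also rose, held no match in their windows.

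Among regulators of the pathway, Usp18, a protease that removes ISG15 from proteins and dampens receptor signaling, was at 19.5, 26.6 and 12.8 CPM in Hbs1l-/- and at 0.796, 0.711 and 0.932 CPM in control MEFs. It rose by 4.54 on the log2 scale with a standard error of 0.30 (adjusted p = 1.67e-04), the largest increase under the naming rule. Isg15, the ubiquitin-like protein itself, was at 55.4, 79.3 and 38.7 CPM against 2.67, 3.08 and 4.39 CPM (log2 fold change 4.04, adjusted p = 3.16e-04). In these genes every Hbs1l-/- library exceeded every control library. Irf9, a DNA-binding factor of the pathway, was at 45.7, 50.7 and 36.6 CPM against 4.08, 5.69 and 7.41 CPM (2.92, adjusted p = 3.16e-04). Irf7, which raises interferon transcription, was at 24.3, 30.9 and 14.3 CPM against 0.890, 1.03 and 1.95 CPM (4.03).

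Antiviral effectors rose as well. Oas1a, a synthase that makes 2'-5' oligoadenylates on sensing double-stranded RNA, was at 21.2, 34.2 and 16.3 CPM against 0.515, 1.22 and 1.19 CPM (log2 fold change 4.53, standard error 0.35, adjusted p = 3.86e-04). Oasl1 and Oasl2, relatives of the same family, had log2 fold changes of 3.28 and 4.17. Ifit1, which binds foreign RNA ends, was at 22.9, 35.2 and 14.2 CPM against 0.937, 2.01 and 2.38 CPM (3.68), and Ifit3, which partners it, had a log2 fold change of 3.14. Bst2, a protein that tethers budding viruses to the cell, was at 81.5, 91.9 and 55.9 CPM against 7.03, 7.74 and 9.88 CPM (3.20, adjusted p = 1.67e-04). The chemokine gene Cxcl10 was at 18.4, 25.0 and 12.4 CPM against 1.83, 2.65 and 2.04 CPM (3.11), and the log2 fold change of Xaf1, a pro-apoptotic gene, was 3.23. The Hbs1l-/- libraries differed among themselves in the same order for most of the list: replicate 2 was the highest of the group for 61 of the 67 genes and replicate 3 the lowest for 56.

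The other 5 members did not pass the test. Eif2ak2, which encodes the kinase PKR, was at 10.7, 20.2 and 13.5 CPM against 11.6, 12.3 and 12.8 CPM, so that only replicate 2 stood clearly above the controls. Irgm1 (log2 fold change 0.49, adjusted p = 0.0571), Isg20 (0.47, adjusted p = 0.163), Ifit2 (0.28, adjusted p = 0.338) and Slfn5 (-0.11, adjusted p = 0.856) were the others.

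Further pathway genes were looked up after the values of the list had been seen. The ligands were barely detected, with 4 estimated counts of Ifnb1 and 3 of Ifna4 over the 3 Hbs1l-/- libraries and 0 over the 3 control libraries, at or near the 3 counts taken as the floor over a group. The receptor genes Ifnar1 (log2 fold change 0.28, adjusted p = 0.0533) and Ifnar2 (0.28, adjusted p = 0.0883) did not pass, and neither did the kinase genes Jak1 (0.00, adjusted p = 0.990) and Tyk2 (0.19, adjusted p = 0.231). Ifngr1, a receptor of interferon gamma, rose by 0.51. Other genes of the pathway differed more, and the transcription factor gene Stat2 was at 44.2, 45.01 and 24.8 CPM against 7.50, 8.57 and 8.17 CPM (2.23). The RNA sensor genes Ddx58 and Ifih1 had log2 fold changes of 1.26 and 1.92, and the DNA sensor gene Cgas of 0.99, whereas Mavs, the adaptor of the RNA sensors, was at 0.05 (adjusted p = 0.748).

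**Figure D3:**
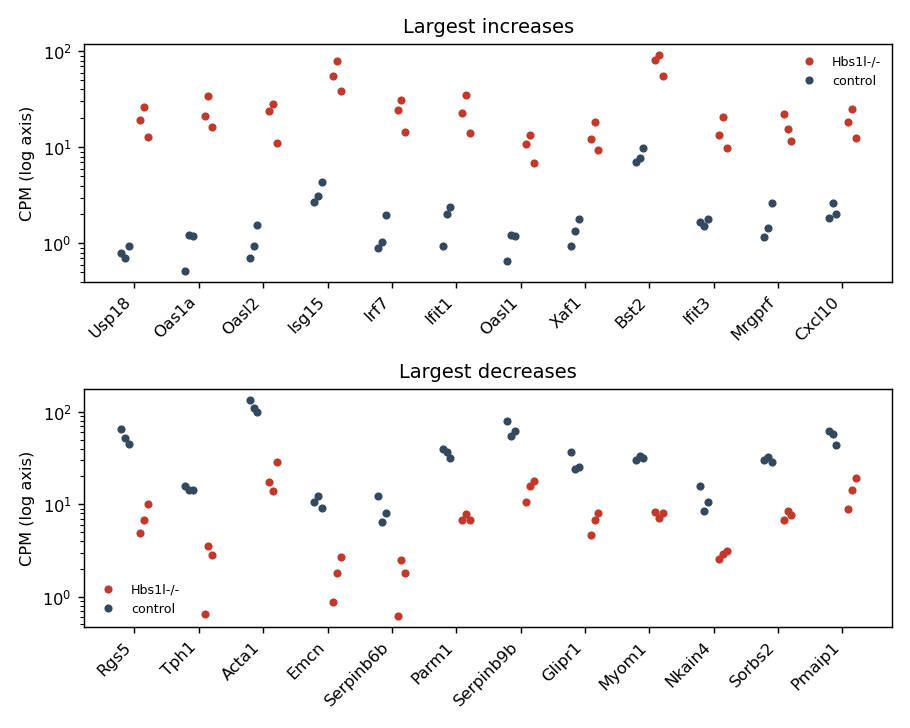
CPM (log axis) of the 12 genes with the largest increase and the 12 with the largest decrease by the naming rule, Hbs1l set aside, with 1 point per library, for 3 Hbs1l-/- and 3 control libraries. No point of a group reaches the other group for any of these genes, which the naming rule required, and Usp18 lies between 12.8 and 26.6 CPM in Hbs1l-/- cells and below 1 CPM in control cells.

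Macrophage markers moved in the same direction as the interferon genes. Of 6 listed markers, 5 rose (12.7% of all genes did) and Ptprc (log2 fold change 0.44, adjusted p = 0.376) did not pass, with a median of 1.09. None was at 0 in either group, and their summed level was 69.4 to 103 CPM in Hbs1l-/- and 32.7 to 50.7 CPM in control libraries. C1qb, a complement component made by macrophages, was at 23.6, 25.7 and 19.5 CPM against 7.78, 8.69 and 12.2 CPM (1.24, adjusted p = 0.00274), and Adgre1, which encodes F4/80, at 10.1, 11.7 and 6.39 CPM against 3.09, 4.11 and 4.43 CPM. Csf1r (1.11), C1qa (1.06) and Tyrobp (0.79, not called without Hbs1l-/- replicate 2 or control replicate 1 or 2) were the other markers that rose. Their part in the interferon result was not tested. In bulk RNA, more cells of a type and more RNA per cell cannot be told apart.

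The largest decreases were of another kind. Hbs1l itself (-2.78), described above, would be among the 12 by the naming rule and was set aside from them. Rgs5, a regulator of G protein signaling known from pericytes, was at 4.92, 6.73 and 10.04 CPM in Hbs1l-/- and at 65.5, 52.4 and 45.3 CPM in control MEFs (log2 fold change -2.90, standard error 0.24, adjusted p = 5.79e-04). Acta1, the skeletal muscle actin, was at 17.3, 13.9 and 28.5 CPM against 134, 111 and 101 CPM (-2.54, adjusted p = 6.77e-04). Emcn, a sialomucin of endothelial cells, was at 0.878, 1.81 and 2.71 CPM against 10.6, 12.2 and 9.003 CPM (-2.51). Tph1 (-2.59), which starts serotonin synthesis, the serpins Serpinb6b (-2.35) and Serpinb9b (-2.15), Parm1 (-2.34), Glipr1 (-2.11), Nkain4 (-2.02), Myom1 (-2.03), a protein of the sarcomere M band, Sorbs2 (-2.004) and the pro-apoptotic Pmaip1 (-1.93) complete the 12, the last of which would give way if Hbs1l were counted.

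Muscle genes fell. Of 30 listed genes of skeletal muscle, 23 were tested, 17 fell (10.4% of all genes did), none rose, and the median log2 fold change was -1.45. Of the 23, 6 reached the filter on low counts through the control libraries alone and 4 of these fell, while of 16 that reached it in both groups 13 fell. Over all genes, 547 reached it through the control libraries alone, of which 113 fell and none rose. The listed genes were low even in control cells, with a summed level of 178 to 224 CPM against 47.9 to 61.1 CPM in Hbs1l-/- cells. Mylpf, a fast myosin light chain, was at 1.37, 1.21 and 1.16 CPM in Hbs1l-/- and at 10.5, 7.19 and 5.17 CPM in control MEFs (-2.61, adjusted p = 8.15e-04). Myl1 (-2.89), Tnnt3 (-2.15), the embryonic myosin gene Myh3 (-2.28) and Myog (-1.42), a factor of muscle differentiation, fell too, the last not called in 4 of the 6 fits that left out 1 library. The groups of these genes did not overlap. Of 6 muscle markers, 5 fell and Myod1 (-1.45, adjusted p = 0.0513) did not pass, and without Hbs1l-/- replicate 2 or control replicate 2 only 3 did. Leaving out 1 library at a time, 13 to 16 of the skeletal muscle genes fell.

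The contractile genes of smooth muscle, which cultured fibroblasts also express, were lower by a smaller amount. Of 25 tested genes 16 fell and 1 rose (10.4% and 12.7% of all genes did), with a median of -0.57. When 1 library was left out, 14 to 16 fell. Acta2, the smooth muscle actin, was at 8176, 7110 and 8530 CPM in Hbs1l-/- and at 13245, 11215 and 12888 CPM in control MEFs (-0.65, adjusted p = 0.00570). Myl9, its myosin light chain, was at 518, 475 and 530 CPM against 1112, 873 and 1038 CPM (-0.99, adjusted p = 0.00119). Myh11 (-1.36), Synpo2 (-1.40), Ldb3 (-1.49), Cnn1 (-0.76), Tagln (-0.58) and Des (-0.78) fell as well, and no library of these groups overlapped. With 1 library left out the call was lost in 2 of 6 fits each for Tagln and Des. The member that rose was Srf (0.31, adjusted p = 0.0388), a factor that binds CArG boxes in such genes, but that call was lost in 5 of the 6 fits that left out 1 library, and with the GC and length offsets its log2 fold change was -0.03. All 4 smooth muscle markers fell, with summed levels of 10530 to 12640 CPM against 16050 to 19640 CPM.

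The CArG box was searched as CCWWWWWWGG, where W is A or T, which reads as its own reverse complement. An exact match was held by 5 of 21 smooth muscle windows (23.8%) and 2 of 17 skeletal muscle windows (11.8%). The share was 1.6% of the tested genes with a window, and none of the 51 interferon windows held a match. The windows of Acta1 (chr8:123894726-123895025, minus strand, GRCm38.p6, RefSeq) and Myl9 (chr2:156775214-156775513, plus strand) are shown as genes that fell and hold a match, in capitals. Srf, the smooth muscle gene that was called higher, is among the 5 and holds 2 matches.
Acta1: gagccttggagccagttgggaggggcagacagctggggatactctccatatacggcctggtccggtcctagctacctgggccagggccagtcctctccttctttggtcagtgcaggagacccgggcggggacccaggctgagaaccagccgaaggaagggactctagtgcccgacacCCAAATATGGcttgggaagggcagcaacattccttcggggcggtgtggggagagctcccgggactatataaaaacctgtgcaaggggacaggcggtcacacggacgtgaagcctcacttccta
Myl9: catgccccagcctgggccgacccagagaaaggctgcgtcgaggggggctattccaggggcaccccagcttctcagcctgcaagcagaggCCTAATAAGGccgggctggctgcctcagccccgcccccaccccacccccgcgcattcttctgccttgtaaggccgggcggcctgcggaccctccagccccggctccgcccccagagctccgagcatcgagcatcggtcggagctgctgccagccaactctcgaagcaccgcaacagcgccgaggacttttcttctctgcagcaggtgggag
The match began 73 bases before the start of Acta1 and 161 before that of Myl9. Acta2, Cnn1 and Des fell without an exact match in their windows. Looser forms of the box, with a C or G in the core, were not searched, so these windows may still hold such boxes.

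Many genes of the dividing cell were higher, and without the GC and length offsets none of those listed was called lower in RNA. Of 45 genes of DNA replication, 28 rose and none fell (12.7% and 10.4% of all genes did), with a median log2 fold change of 0.55. With the offsets 34 rose and 1 fell. Mcm5, a subunit of the replicative helicase, was at 233, 217 and 232 CPM in Hbs1l-/- and at 110, 108 and 129 CPM in control MEFs (0.97, adjusted p = 7.89e-04), and Cdt1, which loads that helicase, had a log2 fold change of 1.08. Dut (0.74), which removes dUTP, and Pold1 (0.93), a polymerase subunit, followed. Of 40 genes of mitosis, 21 rose and none fell (median 0.43), and 33 rose with the GC and length offsets. Cdc20, an activator of the anaphase-promoting complex, was at 208, 169 and 180 CPM against 109, 102 and 108 CPM (0.80, adjusted p = 0.00150), and Cenpa (0.81), Kif2c (0.86) and Kif20a (0.67) rose with it. Summed mitosis levels were 2460 to 2592 CPM against 1555 to 1835 CPM, without overlap. With 1 library left out, 24 to 27 replication genes and 16 to 24 mitosis genes rose.

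Part of the genes of ribosome assembly rose, and most genes of ribosomal proteins did not pass the test. Of 62 genes of ribosome biogenesis, 26 rose (12.7% of all genes did) and none fell (median 0.21). Noc2l (0.74), Polr1b (0.75), a subunit of RNA polymerase I, Rrp1b (0.72) and Nle1 (0.70) were among the 26. That count was 16 without Hbs1l-/- replicate 3 or control replicate 2 and 17 without control replicate 1. Of 47 genes of large subunit proteins, Rpl18 rose (0.43, adjusted p = 0.0288) and Rpl7 fell (-0.54, adjusted p = 0.0125), and of 32 of small subunit proteins, Rps2 (0.49) and Rps14 (0.49) rose. With 1 library left out the call was lost in 4 of 6 fits for Rpl18, 4 for Rps2 and 6 for Rps14, and with the GC and length offsets 7 large and 4 small subunit genes rose. Among 22 aminoacyl-tRNA synthetases, Vars (0.66), Yars (0.35), Kars (0.34) and Farsa (0.33) rose, where 12.7% of all genes did, and 1 rose without Hbs1l-/- replicate 1 or 3 or control replicate 1 or 2. The 13 mRNAs encoded by the mitochondrial genome included 8 that fell (10.4% of all genes did) and none that rose (median -0.64), the most changed being mt-Atp6 at 295, 630 and 459 CPM against 1480, 1560 and 1938 CPM (-1.85, adjusted p = 0.00183). They are AT-rich, with a median GC content of 37.1%, and with the offsets 1 fell, while 2 fell without Hbs1l-/- replicate 1 or control replicate 2 and 5 without control replicate 3.

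Of 8 genes of ribosome rescue and termination, Hbs1l fell, Gtpbp1 rose and 6 did not pass, where 10.4% of all genes fell and 12.7% rose. In footprints 3 of the 8 were higher and 1 lower, where 17.3% and 16.7% of all footprint genes were. Pelo was at 31.1, 26.1 and 26.6 CPM in Hbs1l-/- and at 23.8, 23.5 and 24.7 CPM in control MEFs, with groups that did not overlap and a log2 fold change of 0.22 that did not pass (standard error 0.11, adjusted p = 0.167). Abce1, the recycling ATPase, was at 52.7, 113 and 114 CPM against 123, 142 and 132 CPM (-0.50, adjusted p = 0.167), with replicate 1 apart. With no filter on low counts Abce1 was called lower (-0.46). Gtpbp1, a related GTPase, rose, from 46.6, 46.7 and 51.3 CPM in control to 75.7, 67.0 and 73.9 CPM in Hbs1l-/- MEFs (0.58, adjusted p = 0.00374). Its paralog Gtpbp2 was at 0.31 (adjusted p = 0.0568), and the termination factors Etf1 (-0.19), Gspt1 (0.03) and Gspt2 (-0.12) did not pass either.

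Of 20 genes of ribosome quality control, Zfp598, the ligase that marks collided ribosomes, rose in RNA (0.53, adjusted p = 0.00529) and so did Edf1 (0.34, adjusted p = 0.0247), a sensor of collisions. Map3k20, which encodes the kinase ZAK, fell (-0.71, adjusted p = 0.00520), as did Nemf (-0.49, adjusted p = 0.0458), a factor that adds tails to stalled nascent chains. These 2 of 20 in each direction are near the shares over all genes (12.7% and 10.4%). In footprints 8 of 20 were higher and 2 lower, where 17.3% and 16.7% of all footprint genes were. The calls for Edf1 and Nemf were each lost in 4 of the 6 fits that left out 1 library. In the list of the Ski complex, exosome and decay enzymes, 10 of 33 genes rose (12.7% of all genes did) and none fell. Among the 10 were the exosome subunits Exosc3 (0.59), Exosc2 (0.55), Exosc7 (0.62) and Exosc8 (0.56). The count of 10 became 4 without control replicate 2, 5 without Hbs1l-/- replicate 1 or 3 or control replicate 1, and 6 without Hbs1l-/- replicate 2. Of 18 factors of nonsense-mediated decay (NMD), Dhx34 (0.56), Rnps1 (0.38), Eif4a3 (0.33) and Smg9 (0.40) rose, where 12.7% of all genes did. Of these factors, 1 passed without Hbs1l-/- replicate 1 or control replicate 1, 2 without Hbs1l-/- replicate 2 or 3, and none without control replicate 2. None of 16 tested snoRNA host genes, whose spliced RNAs are degraded by NMD, passed in either direction (median -0.09), and Gas5 was at -0.28 (adjusted p = 0.131). With the GC and length offsets 2 were called higher and the median was 0.0734, and without Hbs1l-/- replicate 3 Snhg6 was called lower (-0.61).

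Stress and early response lists were mixed. Of 41 genes of the integrated stress response, 16 rose (12.7% of all genes did) and Nupr1 fell (-1.02, adjusted p = 0.00147), where 10.4% of all genes fell. Stc2 (1.35), Cebpb (1.33) and Slc3a2 (0.59) were among those that rose, and the count of 16 became 10 without Hbs1l-/- replicate 2 and 9 without control replicate 2. Of 29 immediate early genes, 14 rose and 2 fell (12.7% and 10.4% of all genes did). Egr1 was at 112, 119 and 101 CPM in Hbs1l-/- and at 31.0, 54.9 and 54.6 CPM in control MEFs (1.24, adjusted p = 0.00347). Arc (1.06), Jun (0.97) and Ier2 (0.86) rose, and Maff (-0.65) and Klf10 (-0.71) fell. The count of 14 became 10 without control replicate 2, 9 without Hbs1l-/- replicate 1 or control replicate 3 and 8 without Hbs1l-/- replicate 2. Of 27 p53 targets 5 rose and 7 fell (12.7% and 10.4% of all genes did), Perp (-1.68), Pmaip1 (-1.93) and Fas (-0.67) among the latter, of which 3 fell without control replicate 2, and the count of 5 was 2 without Hbs1l-/- replicate 2 or control replicate 3 and 3 without Hbs1l-/- replicate 1 or 3 or control replicate 2. Trp53 itself rose (0.37, adjusted p = 0.0306), a call lost in 5 of the 6 fits that left out 1 library and with the offsets (0.24).

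Signals and matrix changed in both directions. Of 39 chemokine and NF-kB genes, 16 rose and 3 fell (12.7% and 10.4% of all genes did), and 8 rose without Hbs1l-/- replicate 2. Of the 39, 2 reached the filter on low counts through the Hbs1l-/- libraries alone, and 1 of these is among the 16. Il1rl1, the receptor of interleukin 33, was at 231, 245 and 244 CPM in Hbs1l-/- and at 38.9, 62.7 and 61.1 CPM in control MEFs (2.14, adjusted p = 4.38e-04), and the neutrophil chemokine gene Cxcl5 at 5.34, 4.84 and 3.08 CPM against 0.328, 0.435 and 0.396 CPM (3.49). Cxcl12 (-0.83), Tnfaip3 (-0.83), an inhibitor of NF-kB, and Ptgs2 (-0.93, not called without Hbs1l-/- replicate 2 or control replicate 2) were the 3 that fell. Of 36 collagens, 7 rose and 9 fell (12.7% and 10.4% of all genes did). Among the 9 were Col8a1 (-1.17), Col7a1 (-1.02), Col4a5 (-0.97) and Col4a6 (-1.45), and among the 7 Col6a2 (1.81), Col5a3 (1.65) and Col6a1 (1.49). The 7 became 3 without Hbs1l-/- replicate 1 or 2 or control replicate 2 and 11 without Hbs1l-/- replicate 3. Of the other matrix genes 19 of 54 rose and 7 fell, where 12.7% of all genes rose and 10.4% fell. Tnn (2.19) and Lum (2.05) were on the higher and Efemp1 (-1.03) and Loxl2 (-0.74) on the lower side. The 19 became 10 without Hbs1l-/- replicate 1 or 2 or control replicate 1 or 2. The 7 became 2 without Hbs1l-/- replicate 3 or control replicate 2 and 3 without Hbs1l-/- replicate 2 or control replicate 3. Targets of TGF-beta and YAP fell in 8 of 28 cases and rose in 2, where 10.4% of all genes fell and 12.7% rose. Ankrd1 (-1.71), Crim1 (-0.93) and Tgfb2 (-0.91) were among the 8. The 2 included Tgfbr2 (0.47), whose call was lost in 5 of the 6 fits that left out 1 library and with the offsets. Of the 2, 1 rose without Hbs1l-/- replicate 1 or 2 or control replicate 1 or 3.

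Identity markers also differed, where 12.7% of all genes rose and 10.4% fell. Fibroblast markers were present in both groups, with a summed level of 13400 to 18360 CPM in Hbs1l-/- and 11970 to 14890 CPM in control libraries. Of 12, 7 rose, Pdgfra from 2.90, 7.55 and 7.05 CPM in control to 33.3, 31.0 and 15.9 CPM in Hbs1l-/- MEFs (2.16, adjusted p = 0.00406) and Lum (2.05) most, and Fn1 fell (-0.79, adjusted p = 0.0383), a call lost in 4 of the 6 fits that left out 1 library. The count of 7 was 3 without Hbs1l-/- replicate 1 or 2 or control replicate 2, and 4 without control replicate 1. Of 4 tested endothelial markers Emcn (-2.51) and Kdr (-0.77) fell (1 of them without Hbs1l-/- replicate 2), while Pecam1 (-0.50, adjusted p = 0.127) and Tek (0.47, adjusted p = 0.233) did not pass, and of 3 neuronal markers Tubb3 (-0.58) and Stmn2 (-0.78) fell. No erythroid or liver marker passed the filter. Of 37 Hox genes 3 rose and 8 fell, with a median of -0.25, and of 62 other patterning genes 16 rose and 11 fell, where 12.7% of all genes rose and 10.4% fell. Of the 11, 3 reached the filter on low counts through the control libraries alone. Hoxd13 was at 18.6, 14.8 and 18.2 CPM against 6.37, 6.72 and 5.62 CPM (1.47, adjusted p = 6.42e-04), while Hoxa3 fell (-0.89). Tbx4 (1.37) and Pitx1 (1.28) rose and Msx2 fell (-1.85). Hoxa3 and Msx2 were named after their values were seen. The 8 Hox genes that fell became 5 without Hbs1l-/- replicate 1, 4 without replicate 3, 3 without replicate 2 or control replicate 1, 2 without control replicate 2, and 14 with the GC and length offsets. The 11 other patterning genes that fell became 5 without control replicate 2, 7 without Hbs1l-/- replicate 3 and 17 with the offsets. Of 31 imprinted genes 9 fell and 2 rose, where 10.4% of all genes fell and 12.7% rose. H19 was at 9673, 7772 and 6515 CPM against 2111, 2733 and 3389 CPM (1.54, adjusted p = 0.00158) and Dlk1 at 1.24, whereas Peg10 (-1.09), Peg3 (-1.11) and Snrpn (-0.83) fell.

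**Figure D4:**
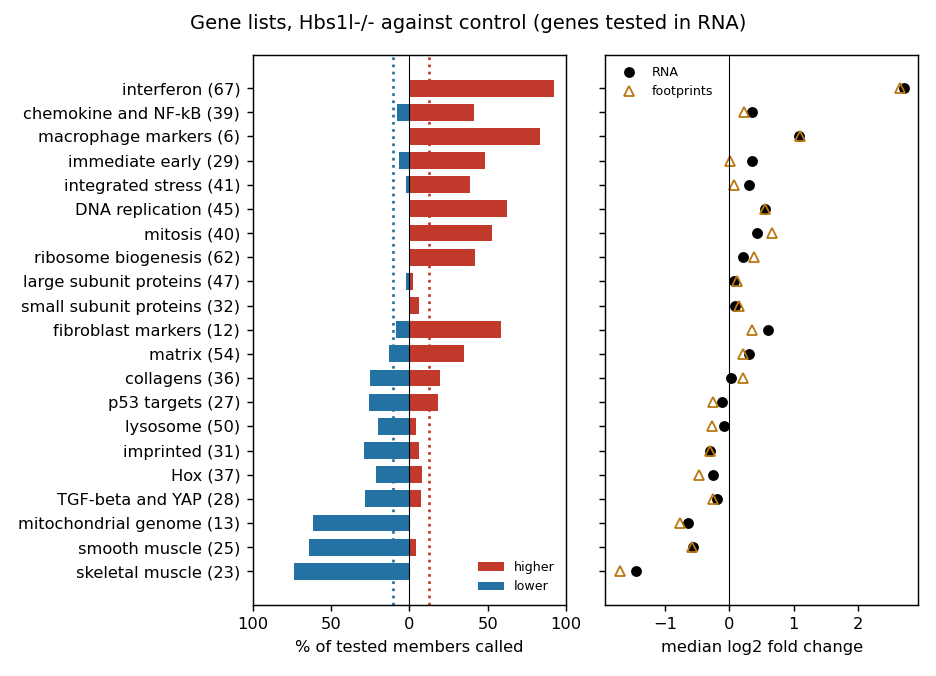
Left, the percentage of tested members of each gene list (number tested in parentheses) that was called higher (red, to the right) or lower (blue, to the left) in Hbs1l-/- MEFs, with dotted lines at 12.7% and 10.4%, the shares over all genes. Right, the median log2 fold change of each list in RNA (circles) and in ribosome footprints (triangles), which is 2.72 and 2.65 for interferon genes.

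The Hbs1l allele was made in C57BL/6N cells, so genes linked to it may carry that substrain's sequence. The paper describes the floxed and null Hbs1l lines as C57BL/6N, so genes elsewhere in the genome may carry it too. Control cells held only the Cre transgene, so genotype and substrain background cannot be told apart here. How far the groups differ in substrain sequence was not tested. Within 5 Mb of Hbs1l, 47 genes were tested, 7 were higher and 10 lower (36.2% called, where chromosome 10 as a whole had 22.6%), Perp (-1.68) and Tnfaip3 (-0.83) among the lower. In this region Ifngr1 (0.51) and Enpp1 (0.89) rose. These were named after their values were seen. Whether linked sequence has a part in them was not tested. Of 6 tested genes known to differ between C57BL/6 substrains, Ide (-0.81, adjusted p = 0.00226) and Fgfbp3 (-0.75, adjusted p = 0.0262), neighbors on chromosome 19, fell and 4 were not called, where 10.4% of all genes fell. The call for Fgfbp3 was lost in 4 of the 6 fits that left out 1 library, and Nnt (-0.52) was called lower without control replicate 3 (-0.73), by DESeq2 and with no filter. It is uncertain, since the annotation holds another, overlapping Nnt gene with a log2 fold change of 0.29.

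At the level of transcripts the test had less reach. Of 36633 transcripts, 269 were higher (0.734%) and 212 lower (0.579%), and 6487 had an unadjusted p under 0.05, while DESeq2 called 3786. The test leaves out the uncertainty of assigning reads to transcripts, so p values of transcripts of the same gene are too small. With 1 library left out edgeR called none, and the calls below therefore rest on all 6 libraries. They belonged to 448 genes, of which 413 were called as genes. Transcripts annotated as NMD targets were called in 10 of 2296 cases, 6 higher and 4 lower. In 9530068E07Rik the gene's total did not differ (log2 fold change 0.01), but 9530068E07Rik-201 was at 125, 108 and 107 CPM in Hbs1l-/- and at 41.1, 33.5 and 32.4 CPM in control MEFs (1.67, adjusted p = 0.0324), and 9530068E07Rik-202 went from 107, 116 and 111 CPM in control to 38.8, 44.99 and 25.7 CPM in Hbs1l-/- cells (-1.61, adjusted p = 0.0401). Exoc3l4 was the other gene with calls in both directions: Exoc3l4-201 had 111 counts in Hbs1l-/- and 0 in control libraries, and another transcript of the gene had 0 and 102. By the same naming rule, Usp18-201, Oas1a-201, Xaf1-202 and Ifi44-201, transcripts of interferon genes, rose, and so did Ash2l-205 (4.77, 4.73 and 3.86 CPM against 0, 0.118 and 0.205 CPM) and Med12-202 (475 counts against 0). Ctsl-204, Fam168a-205, Fam129a-202 and Myh3-202 had 448, 347, 358 and 293 counts in control libraries and 0 in Hbs1l-/- libraries. Ahsa2-205 had 1 count against 646 and Abcd3-205 had 2 against 395. Whether the assignment of reads or sequence differences between the cells have a part in these transcript values was not tested.

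Ribosome footprints of Hbs1l-/- and control MEFs, each replicate again from 1 embryo but prepared as Batch 3 with controls of its own, gave a further measurement of these genes. Of 12051 genes tested there, 2082 were higher (17.3%) and 2007 lower (16.7%). Of 11961 genes tested in both, 1924 were called in both, and 1903 of these (98.9%) in the same direction. They made up 60.8% of the RNA calls tested in footprints and 47.4% of the footprint calls tested in RNA. Hbs1l footprints were at 2.57, 1.66 and 1.4996 CPM against 35.1, 39.3 and 32.4 CPM (-4.15). Of 58 tested interferon genes 55 rose, with a median of 2.65, and Isg15 footprints were at 89.9, 142 and 60.5 CPM against 6.73, 4.17 and 11.7 CPM (3.69). Irgm1 (0.56), Ifit2 (0.85), Eif2ak2 (0.97) and Slfn5 (2.88), which had not passed in RNA, rose in footprints, while Isg20, Psmb10 and B2m did not pass there.

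The muscle lists were lower in footprints too, with 14 of 17 skeletal and 21 of 25 smooth muscle genes down. Of the mitosis genes 37 of 40 rose and 1 fell, and of ribosome biogenesis 47 of 62 rose and 1 fell. Of 29 immediate early genes 4 were higher and 6 lower, where 17.3% and 16.7% of all footprint genes were. Egr1 (0.11, adjusted p = 0.663) and Ier2 (0.08, adjusted p = 0.600) did not pass in footprints, and Klf10 rose there (0.44) although it fell in RNA (-0.71). Klf10 was at 6045 to 13639 CPM in RNA libraries and at 77.8 to 107 CPM in footprint libraries. The fall of Klf10 in RNA was not called without Hbs1l-/- replicate 2, with all 11 RNA libraries in the fit or by limma, and the assignment of reads to Klf10 in RNA was not tested. Lysosome genes fell in 31 of 50 cases in footprints (16.7% of all footprint genes did), against 10 of 50 in RNA (10.4% of all genes did). In RNA the count was 6 without Hbs1l-/- replicate 2 and 4 without control replicate 2, but 18 with the GC and length offsets. The clearest in RNA were Ctsl (-0.62), Asah1 (-0.66) and Atp6v1a (-0.83). Whether RNA and footprint changes of the genes in these lists differ from each other was not tested.

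**Figure D5:**
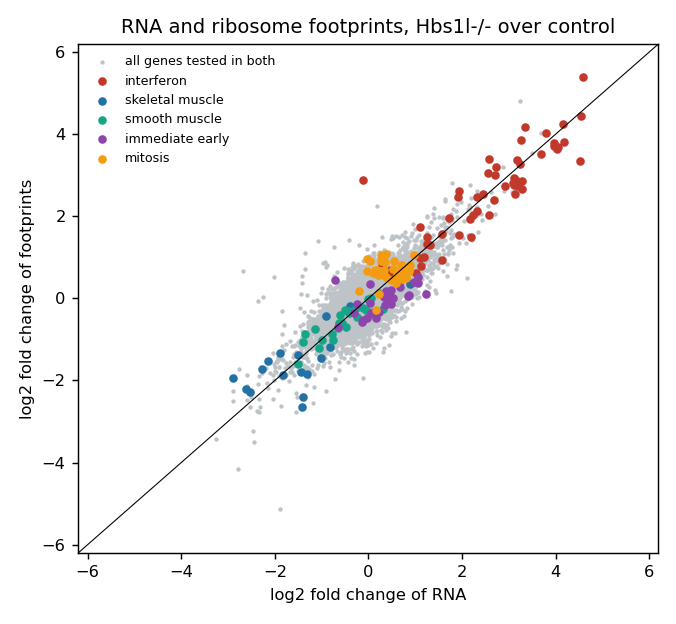
Log2 fold change in footprints (y axis) against that in RNA (x axis), Hbs1l-/- over control MEFs, for genes tested in both, with 5 lists in color and the line of equal change. Interferon genes lie far up along the line, with Slfn5 at 2.88 in footprints and -0.11 in RNA, and the median of the immediate early genes is 0.344 in RNA and 0.00373 in footprints.

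To see what set Hbs1l-/- MEFs apart from those lacking other factors of mRNA quality control, they were tested directly against Pelo-/- and Upf2-/- MEFs, over 16218 genes. Against Pelo-/- cells, 2748 genes were higher (16.9%) and 2372 lower (14.6%). Against Upf2-/- cells, 2327 were higher (14.3%) and 3035 lower (18.7%). Without either of the Pelo-/- libraries the first total of 5120 became 2398 (replicate 1) or 1963 (replicate 2), in fits that assume the lone Pelo-/- library to vary like those of the other groups. Of 68 tested interferon genes, 65 were higher in Hbs1l-/- than in Pelo-/- cells (median 2.84) and 56 were higher than in Upf2-/- cells (median 1.59), and none was lower in either. In the comparison with control, 15 of 67 had reached the filter on low counts through the Hbs1l-/- libraries alone. Their number among the 68 was not counted, so these counts and medians may rest partly on genes kept for being high in Hbs1l-/- cells. The genotypes also differed in RNA of the Y chromosome, with Ddx3y at 11.3 CPM in Pelo-/- replicate 1 and at 25.8 and 22.66 CPM in Upf2-/- replicates 1 and 2, but at no more than 0.115 CPM in Hbs1l-/- libraries, and its part in these contrasts was not tested. Isg15 was at 2.71 and 1.90 CPM in Pelo-/- and at 5.72, 17.1 and 14.9 CPM in Upf2-/- libraries, against 55.4, 79.3 and 38.7 CPM in Hbs1l-/- ones. Usp18 was at 1.03 and 0.736 CPM in Pelo-/- and at 1.22, 4.33 and 4.52 CPM in Upf2-/- cells. Compared with the same controls as Hbs1l-/- cells, the list had a median log2 fold change of -0.07 in Pelo-/- cells (2 higher, 7 lower) and of 0.88 in Upf2-/- cells (33 higher, none lower).

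Other lists set the genotypes apart as well. Over all genes, 16.9% were higher and 14.6% lower than in Pelo-/- cells, and 14.3% were higher and 18.7% lower than in Upf2-/- cells. Skeletal muscle genes were lower in Hbs1l-/- than in Pelo-/- cells in 16 of 25 cases and than in Upf2-/- cells in 16 of 25. Mitosis genes were higher than in Pelo-/- cells in 36 of 40 cases and than in Upf2-/- cells in 30, and DNA replication genes in 39 and 30 of 45. Base composition also differed, since genes of the lowest GC class had a median log2 fold change of -0.573 in Pelo-/- and -0.218 in Upf2-/- over control cells, and the median GC content of the mitosis list is 46.4%. Its part in these contrasts was not tested. Of 47 large subunit protein genes 36 were higher than in Pelo-/- and 26 higher than in Upf2-/- cells, and for 32 of the small subunit the counts were 30 and 26. snoRNA host genes were lower than in Upf2-/- cells in 11 of 16 cases (median -2.13) and higher than in Pelo-/- cells in 5. Smooth muscle genes were lower than in Pelo-/- cells in 16 of 25 cases and than in Upf2-/- cells in 9. Rgs5, at 16.5 and 11.8 CPM in Pelo-/- and 35.5, 22.9 and 31.0 CPM in Upf2-/- libraries, was lowest in Hbs1l-/- cells (-0.94, adjusted p = 0.0229 against Pelo-/-, and -2.01, adjusted p = 1.25e-04 against Upf2-/-). Macrophage markers were higher than in Upf2-/- cells in 6 of 6 cases and than in Pelo-/- cells in 3.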

How the data were processed

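Poly(A) RNA of 3 Hbs1l-/- and 3 control MEF cultures was sequenced in pairs with a stranded kit. The authors quantified reads with kallisto (0.42.4) on Gencode M24 transcripts (mm10), and the deposited files give estimated counts and TPM for 142552 transcripts. For ribosome footprints the deposited counts per gene came, per the authors, from Bowtie2 (2.2.3), HISAT2 (2.1.0) and featureCounts over coding sequence. Coordinates of genes are from Gencode M21 (GRCm38). Here estimated counts were summed per gene, rounded, filtered with filterByExpr, TMM-scaled and tested by edgeR (4.0.16, R 4.3.3) with quasi-likelihood fits, Benjamini-Hochberg adjustment and a threshold of 0.05. CPM carry TMM scaling. Pelo-/- and Upf2-/- libraries entered the direct contrasts in a fit of all 11 MEF RNA libraries, with the same 3 controls for every genotype.

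The members and lists (51 lists, 1453 of 1461 symbols matched) were chosen with earlier results of these data known. Named genes were Hbs1l, all rescue, quality control, substrain and sex-linked genes, up to 12 protein-coding genes of the largest change in each direction (called, not overlapping, mean of at least 5 CPM; Hbs1l was set aside, a departure from the rule), up to 4 called genes per list by smallest adjusted p, up to 6 transcripts in each direction (mean of at least 1 CPM), and all members of counts of 5 or fewer. Not all of these are printed above, and others were named after their values were seen. Alternatives were DESeq2 (1.42.0), limma (3.58.1) on log2(TPM + 0.5), RLE factors, no filter, a minimum of 1 CPM, thinning to equal depth, a replicate block, histone genes left out, all 11 libraries, each library left out and, chosen after seeing the data, GC and length offsets. On simulated data with the depth of the gene test, 66% of genes changed by 1 and 94.5% of genes changed by 2 (log2) were recovered, against 0% and 19.5% for transcripts. Replicates were separate embryos. Counting error and library number limit precision, and paired reads without molecular identifiers are not independent molecules.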

Additional observations from a re-analysis of the deposited data

Results flagged for a closer look

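The mRNA of Hbs1l-/- MEFs differed from that of the other mutants in direct tests of the difference, and this is why both comparisons are listed here. Against Pelo-/- MEFs (2 libraries) edgeR called 5120 of 16218 genes, and against Upf2-/- MEFs (3 libraries) it called 5362. Isg15 was 4.65 higher on the log2 scale than in Pelo-/- cells (adjusted p = 1.32e-04, edgeR) and 2.21 higher than in Upf2-/- cells (adjusted p = 6.87e-04). Groups of 3 libraries or fewer were not tested for single libraries that stand apart. As values, CT010467.1 took 15.7% of the estimated counts of control replicate 1 and 5.91% to 10.1% in the other 5 RNA libraries, and AY036118 took 1.02% in control replicate 3 and at most 0.000493% in the others.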

How the results depend on the processing

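The 3542 genes called between Hbs1l-/- and control MEFs became 2041 with limma on TPM, and 1817 to 2663 when 1 library was left out. GC and length offsets gave 4435 genes (2294 higher, 2141 lower), of which 3050 were among the 3542. The sign of 3 called genes turned with limma on TPM, of 3 with the offsets, and of none when a library was left out. Srf was at -0.03 with the offsets and at -0.03 with the replicate block plus offsets. Of 217 named genes called, 141 were called under all 17 alternatives. For transcripts, 481 calls became 3786 with DESeq2, 1494 with all 11 libraries, 969 with a minimum CPM, 265 with no filter, 272 with limma on TPM, 0 with the replicate block, and 0 to 0 when 1 library was left out. The cause was not tested. Against Pelo-/- cells, leaving out 1 library gave 1963 to 5011 genes, against Upf2-/- cells 3973 to 4907, and in footprints 2917 to 4083. Same-numbered Hbs1l-/- and control libraries did not deviate together (r across genes 0.0416, 0.156 and -0.128), so the numbers were not taken as pairs. With the replicate block, gene calls numbered 2813 against control, 4237 against Pelo-/-, 5034 against Upf2-/- and 4062 in footprints.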
